A study of Mus musculus with 4 samples.

Results

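The nuclear genes of the mitochondrial respiratory chain and ATP synthase were followed in mouse liver after an extract of the plant Gynura segetum. Members were taken by gene symbol alone: symbols beginning with Nduf or Uqcr, the genes Sdha, Sdhb, Sdhc and Sdhd, and symbols beginning with Cox4 to Cox8 or Atp5, with Cox6b2 left out. The rule took 96 of the 25239 genes listed, and the 89 with at least 10 counts in at least 2 libraries are reported. They comprised 36 subunits of complex I, 4 of complex II, 8 of complex III, 13 of complex IV and 17 of ATP synthase, with 8 complex I assembly factors named Ndufaf, the Ndufa4 relative Ndufa4l2 and 2 pseudogenes. Ndufa4 carries a complex I name but belongs to complex IV, and was counted there. Cox7a2l, a supercomplex factor related to Cox7a, was also counted among the subunits of complex IV. The other 7 members, Cox4i2, Cox6a2, Cox7b2, Cox8b, Cox8c, Ndufa11b and Ndufb4c, fell under the count minimum, and their counts are given with the tissue-restricted forms.

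All mice were C57BL/6 of 6 to 8 weeks, with no altered allele in the labels. The 2 control libraries came from liver of mice given saline, and the 2 extract libraries from liver of mice given Gynura segetum extract by the intragastric route, 30 g/kg each day over 3 weeks, from a preparation concentrated to 2 g/mL. The plant contains pyrrolizidine alkaloids, which injure the endothelium of the liver sinusoids after activation in hepatocytes. Counts assigned to genes ranged from 32215268 to 49711750 per library. Separate mice are not stated for the libraries, so a p-value reflects only how these particular libraries scatter, and that scatter may be technical. The sex of the mice, the number behind each library and the hour of collection are not given in the labels.

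The respiratory chain passes electrons from NADH (complex I) and succinate (complex II) through ubiquinone, complex III and cytochrome c to oxygen at complex IV, and ATP synthase uses the resulting proton gradient to make ATP. Most subunits are encoded in the nucleus and a few in the mitochondrial genome, so that each complex except complex II needs both. Hepatocytes are rich in mitochondria and depend on this chain for gluconeogenesis and urea synthesis. Mitochondrially encoded subunits are not analysed here.

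Few transcripts of the nuclear respiratory chain genes passed the threshold with 2 libraries per group. Of the 89 members, 1 passed the threshold (adjusted p under 0.05, edgeR's quasi-likelihood test) as higher after extract, the complex I subunit Ndufb6, and 0 passed as lower. That is 1.12% of the members, where 8.54% of the 13963 genes tested passed, 4.91% as higher and 3.63% as lower. At an unadjusted p under 0.05 the members numbered 4 (4.49%, against 23.5% of all genes tested): Ndufb6, Ndufa8 and Ndufaf4 with higher values and Ndufb5 with lower ones, and DESeq2 called 2 members higher (Ndufb6 and Ndufa8, against 7.41% of all genes) and 0 lower (against 6.58%). The median log2 fold change of the members was -0.08, against -0.005 for all genes tested, with 55 members below 0 and 34 above, where 50.4% of all genes lay below 0. Scaling to total counts, with no TMM factor, moved the median of all genes up by 0.17, to 0.16, and that of the members to 0.09, so signs of small medians below hold on the TMM scale. The members' median also depended on single libraries: it was -0.14 or 0.04 when control replicate 1 or 2 was left out, and -0.005 or -0.18 when extract replicate 1 or 2 was.

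A missed threshold does not show that a gene was unchanged, so the 95% intervals are given as well. The interval of the log2 fold change lay within 2-fold in either direction for 79 of the 89 members (88.8%), against 56.7% of all genes tested, and within 1.5-fold for 60 (67.4% against 27.0%). The 10 members whose interval reached past 2-fold were Ndufb6, Ndufa8, Ndufaf4, Ndufa1, Ndufs5, Atp5k, Cox7a1, Ndufa4l2 and the pseudogenes Ndufs5-ps and Cox7c-ps1. The groups did not overlap for 30 members (33.7%, against 54.4% of all genes tested): 21 lay lower in both extract libraries (23.6% against 26.7%) and 9 higher (10.1% against 27.6%). The members' median level in the control libraries was 107 CPM (counts divided by library size in units of 1e6, with TMM factors) and that of all genes tested 14.3 CPM. Among the 4484 genes tested with a mean of at least 30 CPM, 258 rose and 208 fell (5.75% and 4.64%), 83.3% had an interval within 2-fold and 50.1% one within 1.5-fold.

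**Figure D1:**
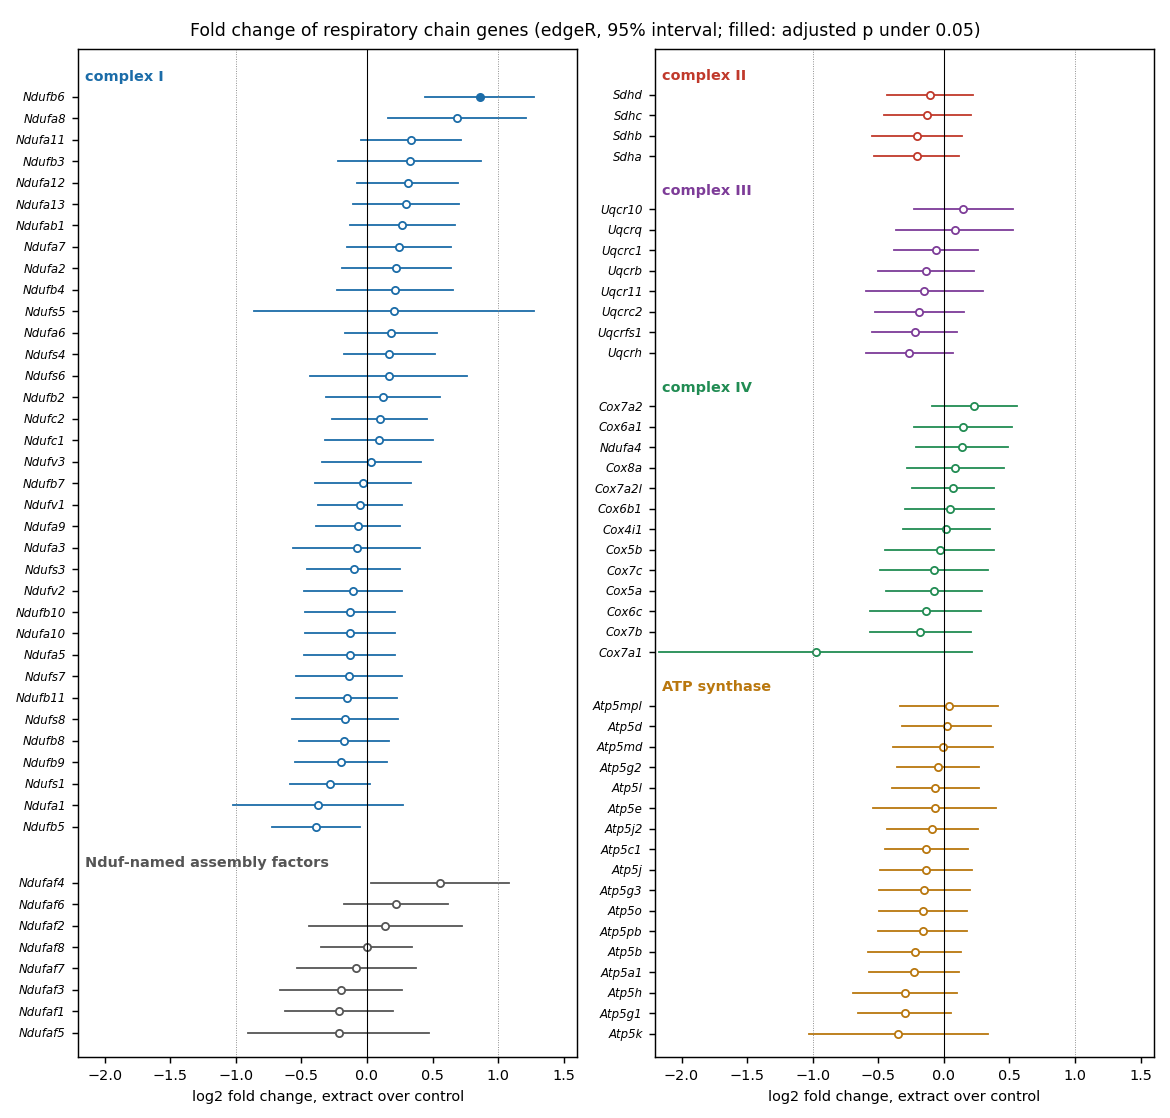
Log2 fold change (x axis, extract over control) of the reported subunits and Nduf-named assembly factors, except 1 that is not shown, with its 95% interval from edgeR's fit; the filled point is past the threshold and dotted lines mark 2-fold. Ndufb6 is the 1 filled point, and the widest interval drawn belongs to Cox7a1, whose lower bound is -2.17.

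Complex I held the 1 called member, and its subunits differed widely among themselves. Its 36 subunits split evenly, with 18 below 0 and 18 above, a median log2 fold change of -0.0005 and a range from -0.39 to 0.86. This balance rested on all 4 libraries: the median was -0.11 or 0.13 when control replicate 1 or 2 was left out, and 0.08 or -0.13 when extract replicate 1 or 2 was. Ndufb6, an accessory subunit of the membrane arm, measured 54.2 and 71.4 CPM in the control libraries and 107.7 and 120.0 CPM in the extract libraries. Both extract values lay above both control values, and the group means were 62.8 ± 12.1 and 114 ± 8.68 CPM (SD, n = 2 libraries each). The log2 fold change of Ndufb6 was 0.86 (SE 0.17, 95% interval 0.44 to 1.27), a fold of 1.81, with an adjusted p of 0.030 by edgeR's quasi-likelihood test. Over the 14 alternatives its log2 fold change ran from 0.67 to 1.07 and it passed in 12, with adjusted p from 1.46e-08 to 0.223. It missed the threshold without extract replicate 1 (adjusted p = 0.126, edgeR) and without extract replicate 2 (adjusted p = 0.223, edgeR).

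Ndufa8, a disulfide-rich accessory subunit on the intermembrane space side, measured 57.0 and 86.5 CPM in the controls and 105.8 and 125 CPM after extract. The groups did not overlap, but the control libraries stood far apart, and the log2 fold change of 0.69 (SE 0.22, 95% interval 0.16 to 1.22) had an adjusted p of 0.119 in edgeR's fit. Ndufaf4, an assembly factor that helps build the part of complex I that reaches into the matrix and is not a subunit of the finished enzyme, measured 18.7 and 29.1 CPM against 33.8 and 36.2 CPM. Again both extract libraries lay above both controls, with a log2 fold change of 0.55 (SE 0.22, edgeR adjusted p = 0.193). Ndufb5, a membrane arm subunit, went the other way, with 85.6 and 95.6 CPM in the controls and 65.4 and 72.9 CPM after extract. Its log2 fold change was -0.39 (SE 0.14, 95% interval -0.73 to -0.05, edgeR adjusted p = 0.158).

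The stretches before the start sites of these 4 genes are shown because they are the members whose unadjusted p was lowest, and they allow a look at motifs common in promoters of mitochondrial genes. Each is the 250 bases upstream of the start site in the RefSeq promoter table on GRCm38.p6 (the assembly also called mm10), read 5′ to 3′ on the gene's strand. For Ndufb5 that start site lies a few bases inside the annotated gene span, so the end of its window overlaps the gene. Capitals mark matches, on either strand, to GCATGCGC, a core of the NRF1 element, or to CCGGAAG, a core of the element bound by ETS factors such as GABPA. The windows are chr4:40279422-40279671, minus strand, for Ndufb6, chr2:36049339-36049588, minus strand, for Ndufa8, chr4:24897833-24898082, plus strand, for Ndufaf4 and chr3:32736813-32737062, plus strand, for Ndufb5.
Ndufb6: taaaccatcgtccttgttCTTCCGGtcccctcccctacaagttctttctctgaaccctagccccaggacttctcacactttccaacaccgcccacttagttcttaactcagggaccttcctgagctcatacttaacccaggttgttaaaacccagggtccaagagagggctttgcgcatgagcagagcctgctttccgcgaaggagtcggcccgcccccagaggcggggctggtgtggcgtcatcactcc
Ndufa8: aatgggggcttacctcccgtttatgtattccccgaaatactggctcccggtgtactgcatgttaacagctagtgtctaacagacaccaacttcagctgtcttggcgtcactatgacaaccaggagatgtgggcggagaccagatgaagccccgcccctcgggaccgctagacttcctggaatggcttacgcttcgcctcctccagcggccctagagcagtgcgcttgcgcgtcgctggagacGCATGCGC
Ndufaf4: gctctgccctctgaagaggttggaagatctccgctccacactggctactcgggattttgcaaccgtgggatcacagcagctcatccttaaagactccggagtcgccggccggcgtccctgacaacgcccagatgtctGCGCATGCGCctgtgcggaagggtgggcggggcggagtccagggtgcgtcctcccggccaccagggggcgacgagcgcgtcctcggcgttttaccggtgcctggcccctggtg
Ndufb5: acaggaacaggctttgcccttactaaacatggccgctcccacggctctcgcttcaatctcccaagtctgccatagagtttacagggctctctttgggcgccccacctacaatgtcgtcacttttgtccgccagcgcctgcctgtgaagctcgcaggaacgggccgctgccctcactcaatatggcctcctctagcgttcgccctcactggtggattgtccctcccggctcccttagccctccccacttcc

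Ndufb6 held 1 match, to CCGGAAG read on the opposite strand, and Ndufa8 held 1 match to GCATGCGC at the very end of its window. Ndufaf4 held 2 overlapping matches to GCATGCGC, one on each strand. In Ndufb5, the member of the 4 with the lower value after extract, these letters were not found in the window. The RefSeq table held a promoter for 73 reported members and for 27025 genes in all. GCATGCGC was found for 9 of these members (12.3%), against 2.56% of all those genes. CCGGAAG was found for 14 members (19.2%), against 7.83% of all those genes. A match is a description of letters and was not tied to the measured levels.

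Some members share annotated sequence with neighbouring or copied genes, which may affect their counts. Ndufb6 lies at 40270591 to 40279421 on chromosome 4 (RefSeq, GRCm38.p6), and in GENCODE vM21 39.0% of its exon bases are overlapped by Smim27 on the opposite strand, while the RefSeq model of Smim27 ends at 40270228, before Ndufb6 starts. The strand setting of the counting is not stated, so reads of the 2 genes may not be told apart there. Smim27 itself measured 3.86 and 7.04 CPM in the controls and 5.01 and 4.995 CPM after extract, a log2 fold change of -0.12 (edgeR adjusted p = 0.886). Ndufb5, at 32737057 to 32751559 on chromosome 3, has 20.02% of its exon bases overlapped by Mrpl47 on the opposite strand, and Mrpl47 had a log2 fold change of 0.02 (edgeR adjusted p = 0.970). Ndufa8, at 36036324 to 36049338 on chromosome 2, and Ndufaf4, at 24898083 to 24905001 on chromosome 4, shared no stretch of 75 bases with another gene. Such stretches were compared on both strands, so overlap with an opposite-strand neighbour was counted too. Of the 88 reported members with a GENCODE transcript, 39 shared at least 1 stretch of 75 bases. Among these, 4 shared 50% or more of their stretches: Atp5g2 (100%), Atp5l (76.0%), Atp5g1 (59.6%) and Cox7c (50.4%). Counts of those 4 are therefore less certain on this measure. By another measure, 27 members had exon bases overlapped by another gene. For Ndufb2 (50.3% of exon bases, both strands together), Ndufb9 (28.6%) and Ndufb8 (19.7%) such a gene lies on the same strand, so their counts are less certain too.

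The 7 nuclear core subunits of complex I, which carry the flavin, the iron-sulfur clusters and the quinone site, had log2 fold changes below 0 in 7 of 7 on the TMM scale, with none past the threshold. Ndufs1, the iron-sulfur protein of the NADH-oxidising module, measured 126 and 123 CPM in the controls and 101 and 104 CPM after extract, a log2 fold change of -0.28 (edgeR adjusted p = 0.252). Ndufv1, which holds the flavin that takes electrons from NADH, measured 149 and 163 CPM against 147 and 154 CPM, with overlapping groups.

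The 29 supernumerary subunits, which surround the core, had a median log2 fold change of 0.12, with 18 above 0 and 11 below. Their control libraries differed by more, with a median log2 ratio of control replicate 2 over 1 of 0.32. For the core subunits this ratio was 0.12. Median transcript lengths were 732 bases for the supernumerary and 1623 bases for the core subunits. Neither part was checked with single libraries left out. Among the supernumerary subunits the groups were separate for 5 as higher and 4 as lower, where 27.6% and 26.7% of all genes tested were. Besides Ndufb6 and Ndufa8, this held with higher extract values for Ndufa11 (40.9 and 51.3 against 55.7 and 60.6 CPM), Ndufa12 (41.0 and 52.1 against 54.9 and 60.4 CPM) and Ndufa13 (81.5 and 109 against 117 and 116 CPM). These 3 accessory subunits had log2 fold changes of 0.34, 0.31 and 0.30, and the edgeR adjusted p was 0.264, 0.318 and 0.361. With lower extract values the groups were separate for Ndufb5, Ndufb8, Ndufb9 and Ndufb10, all subunits of the membrane arm. Ndufb9 measured 178 and 207 CPM against 160 and 175 CPM, and Ndufb8 measured 97.3 and 114 CPM against 89.9 and 96.7 CPM. For the other 20 supernumerary subunits the groups overlapped. Ndufa1, the small X-linked membrane subunit, measured 36.2 and 63.0 CPM in the controls and 35.5 and 41.0 CPM after extract, so that control replicate 2 stood apart and the other 3 libraries were alike.

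Ndufs5 was the complex I subunit with the lowest level per length, 2.76 control CPM per kilobase, where the next lowest, Ndufc1, had 29.6 and the highest, Ndufb9, had 273. Its counts were 73 and 41 in the controls and 56 and 98 after extract, and 32.4% of its 75-base stretches are shared with other annotated genes. The pseudogene Ndufs5-ps had 6 and 7 counts against 20 and 17, and Cox7c-ps1 had 16 and 18 against 29 and 21. Neither pseudogene passed the threshold in edgeR's fit (adjusted p = 0.422 and 0.869).

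**Figure D2:**
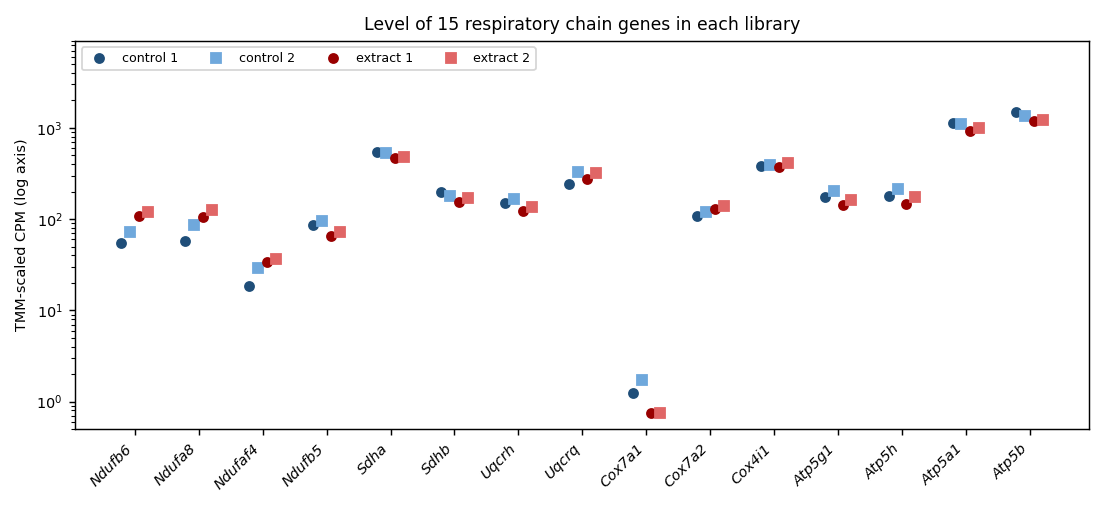
TMM-scaled CPM (y axis, log scale) of 15 members in each of the 4 libraries, circles for replicate 1 and squares for replicate 2, blue for control and red for extract. Ndufb6, Ndufa8 and Ndufaf4 show both extract libraries above both controls, Ndufb5 and Cox7a1 show them below, and Cox4i1 and Uqcrq overlap.

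Among the other Nduf-named assembly factors, Ndufaf6 measured 14.3 and 12.5 CPM in the controls and 15.4 and 15.9 CPM after extract, with separate groups and a log2 fold change of 0.22 (edgeR adjusted p = 0.498). Ndufaf1, which acts early in building the membrane arm, measured 23.2 and 28.2 CPM against 20.03 and 24.3 CPM, with overlapping groups and a log2 fold change of -0.21 (edgeR adjusted p = 0.534). The 8 factors had a median log2 fold change of -0.04 and a range from -0.22 to 0.55, with none past the threshold.

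All 4 subunits of complex II had log2 fold changes below 0 on the TMM scale, with a median of -0.17 that was -3.37e-05 under total-count scaling, and none passed the threshold. Sdha, the flavoprotein that oxidises succinate, measured 548 and 535 CPM in the controls and 464 and 474 CPM after extract. Its control libraries lay above its extract libraries, and the log2 fold change was -0.21 (SE 0.14, edgeR adjusted p = 0.427). Sdhb, the iron-sulfur subunit, measured 198 and 177 CPM against 152 and 172 CPM, a log2 fold change of -0.21 (edgeR adjusted p = 0.458). Sdhc, a membrane anchor, measured 182.0 and 194 CPM against 163 and 181.9 CPM, with groups that barely separated and a log2 fold change of -0.13 (edgeR adjusted p = 0.655) that was 0.04 under total-count scaling. The groups overlapped for the other anchor, Sdhd. The median of complex II was -0.10 without extract replicate 1, -0.24 without extract replicate 2 and -0.16 and -0.15 without control replicates 1 and 2.

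Complex III had a median log2 fold change of -0.14 over 8 subunits (0.03 under total-count scaling), 6 of them below 0, and none passed the threshold. Uqcrh, the hinge protein at the cytochrome c docking face, measured 148 and 165 CPM in the controls and 124 and 137 CPM after extract, a log2 fold change of -0.26 (edgeR adjusted p = 0.329). Uqcrfs1, the Rieske iron-sulfur protein, measured 259 and 269 CPM against 216 and 236 CPM, a log2 fold change of -0.22 (edgeR adjusted p = 0.398). Uqcrc2, a core protein on the matrix side, measured 235 and 245 CPM against 197 and 225 CPM, a log2 fold change of -0.19 (edgeR adjusted p = 0.498). These 3 and Uqcrc1 were the subunits of complex III whose groups were separate, all lower after extract, 4 of 8 where 26.7% of all genes tested were. Leaving out 1 library moved the median of the complex to -0.22 (control replicate 1), -0.05 (control replicate 2), -0.07 (extract replicate 1) or -0.24 (extract replicate 2). Uqcrq, a small subunit next to cytochrome b, had the highest mean CPM of the complex, with 240.1 and 324 CPM against 276 and 321 CPM and a log2 fold change of 0.08 (edgeR adjusted p = 0.848). Its control libraries differed from each other by more than the groups did.

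Complex IV had a median log2 fold change of 0.02, with 6 subunits below 0 and 7 above and none past the threshold, and the median ran from -0.08 without extract replicate 2 to 0.08 without extract replicate 1. Cox4i1, the common form of subunit 4, measured 377 and 393 CPM in the controls and 371 and 410 CPM after extract. The groups overlapped, and the log2 fold change of 0.02 had a 95% interval of -0.32 to 0.35. Cox7a2, the liver form of subunit 7a, measured 108 and 120 CPM against 129 and 138 CPM and was the subunit of this complex with separate groups and higher extract values, at a log2 fold change of 0.23 (edgeR adjusted p = 0.377). Cox7b measured 138 and 167 CPM against 124 and 146 CPM, with overlapping groups and a log2 fold change of -0.18 (edgeR adjusted p = 0.577).

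Several complex IV subunits exist in a common or liver form and a form restricted to other tissues. Among the forms within the member rule, the liver libraries held almost only the common or liver ones. Cox6b2, outside the rule, differed and is given below. Cox7a1, the heart and skeletal muscle form of subunit 7a, had 60 and 51 counts in the controls and 32 and 36 after extract, or 1.25 and 1.72 against 0.742 and 0.756 CPM. Both extract libraries lay lower, with a log2 fold change of -0.98 (SE 0.50, 95% interval -2.17 to 0.21, edgeR adjusted p = 0.303), so the difference was not past the threshold at these counts. Per transcript length Cox7a1 made up 1.91% and 2.35% of Cox7a1 and Cox7a2 together in the controls and 0.955% and 0.910% after extract. Skeletal muscle markers summed to 0.688 and 0.707 CPM in the controls and 0.603 and 0.965 CPM after extract, with 5 of 14 at 0 counts in all libraries. The summed level of 8 smooth and heart muscle markers was 30.9 and 12.8 CPM against 59.0 and 24.9 CPM. Their part in the Cox7a1 values was not tested.

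Cox4i2, the form of subunit 4 found in lung and raised by low oxygen, had 10 and 4 counts in the controls and 3 and 5 after extract. Cox6a2, the muscle form of subunit 6a, had 10 counts in control replicate 1 and 0 in the other 3 libraries, and Cox8b, the heart and muscle form of subunit 8, had 2, 0, 0 and 1. The testis forms Cox7b2 and Cox8c had 0 counts in all 4 libraries, where a count of 0 allows up to 0.0625 to 0.101 CPM (3 counts, counting error only). Their liver counterparts were abundant in every library: Cox6a1 at 292 to 370 CPM, Cox8a at 207 to 256 CPM and Cox7b as above. Of the remaining members under the count minimum, Ndufa11b had 1 count in all and Ndufb4c between 1 and 4 counts per library. Ndufa4l2, a relative of Ndufa4 induced by hypoxia, had 102 and 39 counts in the controls and 81 and 55 after extract, a log2 fold change of -0.19 (edgeR adjusted p = 0.864), against 252 to 310 CPM for Ndufa4.

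Cox6b2, the testis form of subunit 6b and outside the rule, was the contrast to all of these: it had 12 and 10 counts in the controls and 1605 and 1064 after extract, a log2 fold change of 6.69 (SE 0.38, edgeR adjusted p = 0.000446). Per transcript length it made up 0.232% and 0.275% of Cox6b1 and Cox6b2 together in the controls and 24.9% and 15.2% after extract. Its common counterpart Cox6b1, a member, measured 143 and 162 CPM against 149 and 166 CPM, a log2 fold change of 0.04 (edgeR adjusted p = 0.900). None of 9 germ cell markers had enough counts to be tested, and 7 of them were at 0 in all libraries.

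Of the 17 subunits of ATP synthase 15 had log2 fold changes below 0, with a median of -0.14 that was 0.03 under total-count scaling, and none passed the threshold. The median was -0.16 and -0.06 without control replicates 1 and 2, and -0.07 and -0.22 without extract replicates 1 and 2. The groups were separate for 7 of the 17, all lower after extract, where 26.7% of all genes tested were: Atp5a1, Atp5b, Atp5c1, Atp5g1, Atp5h, Atp5o and Atp5pb. Atp5b, the catalytic beta subunit of the F1 head, measured 1474 and 1338 CPM in the controls and 1188 and 1220.4 CPM after extract, a log2 fold change of -0.22 (SE 0.15, edgeR adjusted p = 0.432). Atp5a1, the alpha subunit beside it, measured 1127 and 1104 CPM against 915 and 990.3 CPM, a log2 fold change of -0.23 (edgeR adjusted p = 0.413). In both genes the lower control value exceeded the higher extract value.

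The median was -0.14 over the 12 genes of the proton-conducting Fo part and the peripheral stalk and -0.13 over the 5 genes of F1, which forms the catalytic head and the central stalk, both on the TMM scale. Atp5g1, one of the genes for the c ring, measured 175 and 201 CPM against 144 and 162 CPM, a log2 fold change of -0.30 (edgeR adjusted p = 0.286). The 2 other genes for the same ring protein, Atp5g2 and Atp5g3, had log2 fold changes of -0.05 and -0.15 and overlapping groups. Atp5h, a subunit of the peripheral stalk, measured 177 and 215 CPM against 145 and 174 CPM, a log2 fold change of -0.30 (edgeR adjusted p = 0.352). Atp5k, a small Fo subunit, measured 35.9 and 64.9 CPM against 37.5 and 41.7 CPM, so that control replicate 2 stood apart as it did for Ndufa1.

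Summed over its subunits, ATP synthase came to 5225 and 5342 CPM in the controls and 4487 and 4888 CPM after extract, a ratio of 0.887. Complex II came to 1129 and 1122 CPM against 964 and 1030.1 CPM, a ratio of 0.886. For both the extract libraries lay below the controls, while the sums overlapped for complex I (ratio 1.02), complex III (0.936) and complex IV (1.02). A comparison of 2 against 2 libraries cannot give an exact permutation p below 0.333, so no test is given. The separation depends on the scale. As a share of all gene counts, with no TMM factor, ATP synthase took 0.504% and 0.493% in the controls and 0.484% and 0.509% after extract, and complex II took 0.109% and 0.103% against 0.104% and 0.107%, so that the groups overlapped. Relative to the median of all genes, ATP synthase lay at -0.13 and complex II at -0.16 under either scaling. Without extract replicate 1 these were -0.04 and -0.06, without extract replicate 2 -0.18 and -0.21, without control replicate 1 -0.18 and -0.18, and without control replicate 2 -0.07 and -0.16.

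**Figure D3:**
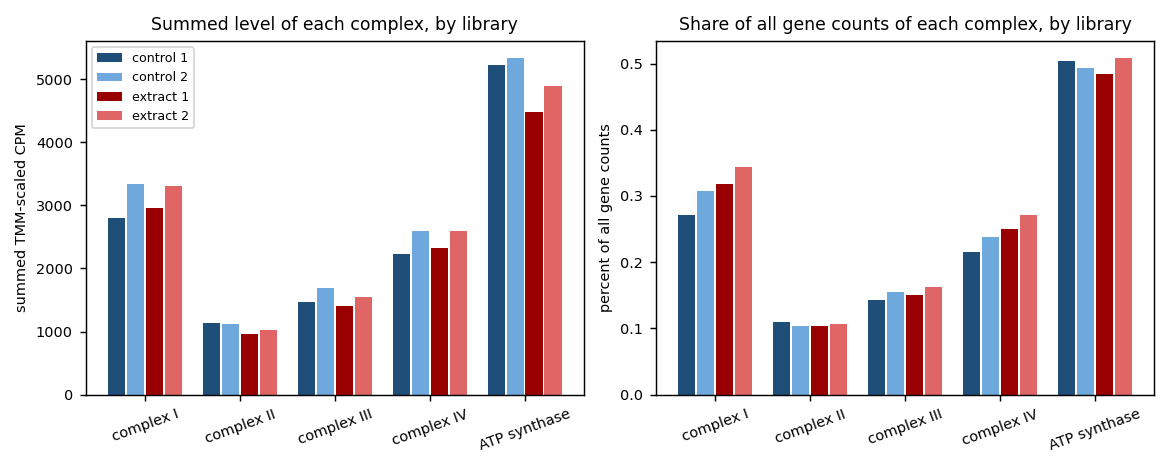
Summed level of each complex in the 4 libraries, as TMM-scaled CPM (left) and as percent of all gene counts (right); bars start at 0. On the left both extract bars of complex II and ATP synthase lie below both control bars, and on the right the groups overlap for both.

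Per transcript length, the complexes stood in the same order of level in both groups. The median over subunits, in control CPM per kilobase, was 84.7 for complex I, 167 for complex II, 239 for complex III, 247 for complex IV and 274 for ATP synthase. After extract these medians were 90.4, 150 (complex II), 225, 255 and 256. The highest single levels per length in the controls were those of Atp5b at 734 and Uqcrq at 697, and the lowest among subunits were those of Ndufs5 and Cox7a1 (3.78).

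Pooled over the members, the median difference between the control libraries was larger than that between the groups. This did not hold for each complex: the median log2 ratio of control replicate 2 over 1 was 0.28 for complex I, 0.03 for complex II, 0.17 for complex III, 0.26 for complex IV and 0.14 for ATP synthase. Of 87 members with at least 1 CPM, 72 were higher in control replicate 2 than in control replicate 1, with a median log2 ratio of 0.22, where the median over the 12125 tested genes with a known transcript length and at least 1 CPM was -0.01. The ratio was larger for short transcripts: its median was 0.31 for 26 members under 600 bases, 0.22 for 28 members of 600 to under 1000 bases and 0.10 for 33 longer members. Those 12125 genes, split by the same lengths, gave 0.25, 0.15 and -0.03, in the same order. The cytosolic ribosomal protein genes, also short and abundant, gave -0.01 over 81 genes. Extract replicate 2 also lay above extract replicate 1, for 85 of 87 members, with a median log2 ratio of 0.16 against 0.002 for the same 12125 genes.

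**Figure D4:**
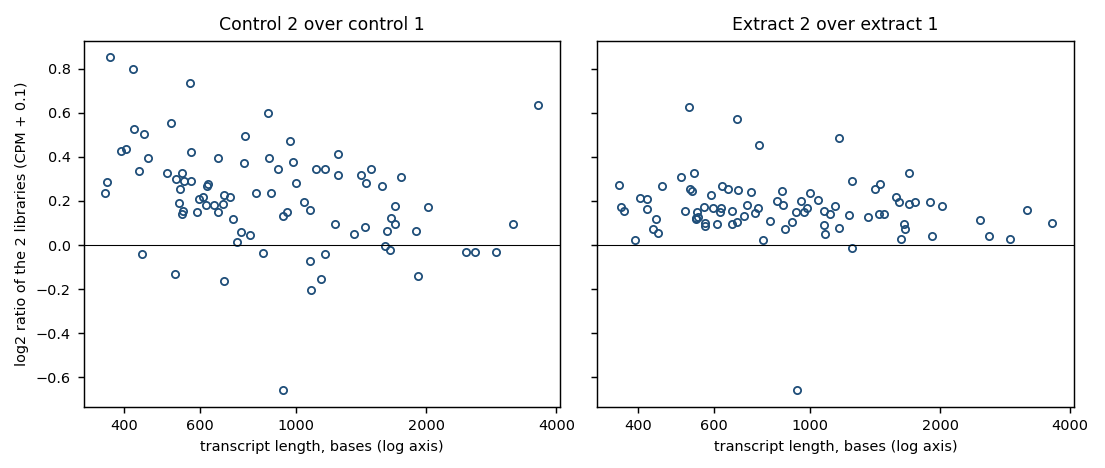
Log2 ratio of the 2 libraries of each group (y axis, TMM-scaled CPM plus 0.1) against transcript length in bases (x axis, log scale) for the 87 members with at least 1 CPM, controls on the left and extract on the right. Most points lie above 0 in both panels. In the control pair the median is higher for shorter transcripts, but single genes scatter. The shortest, Atp5md (362 bases), lies at 0.24 and the longest, Ndufaf4 (3632 bases), at 0.63.

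Which members passed the threshold depended on the control library used. Without control replicate 1, edgeR called 2 members higher (Ndufa8 and Ndufb6), against 12.8% of all genes, and 4 lower (Atp5h, Atp5k, Ndufa1 and Ndufb5), against 9.96%. Without control replicate 2 it called 12 higher, against 12.4% of all genes, and 0 lower (against 12.2%). The 12 were Ndufa2, Ndufa7, Ndufa8, Ndufa11, Ndufa12, Ndufa13, Ndufab1, Ndufaf4, Ndufb3, Ndufb4, Ndufb6 and Ndufs6. These are complex I subunits and 1 complex I assembly factor. Without extract replicate 1 it called 0 members, against 1.61% of all genes as higher and 0.929% as lower, and without extract replicate 2 again 0, against 2.15% and 1.17%. In these fits a lone library is assumed to vary like the other group.

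Other genes of oxidative phosphorylation (electron carriers, assembly factors and further subunits) came to 77 tested genes, of which 4 passed the threshold as higher and 2 as lower in edgeR's fit, or 7.79% where 8.54% of all genes did. With regulators of biogenesis, enzymes of the tricarboxylic acid cycle and pyruvate entry, membrane carriers and mitochondrial ribosomal proteins added, the lists held 208 tested genes. Of these, 6 were higher and 2 lower (3.85%). The 25 electron carriers and enzymes around ubiquinone held 3 genes that rose and 2 that fell, where 4.91% and 3.63% of all genes did. Aifm2, which reduces ubiquinone outside the mitochondria, measured 19.1 and 21.0 CPM in the controls and 51.7 and 49.1 CPM after extract, a log2 fold change of 1.33 (edgeR adjusted p = 0.00329). Coq10b, a ubiquinone-binding protein, measured 13.2 and 18.1 CPM against 42.7 and 48.9 CPM, a log2 fold change of 1.55 (edgeR adjusted p = 0.00655). Coq7, a hydroxylase of ubiquinone synthesis, rose by 0.77 on the log2 scale (18.4 and 16.9 against 28.0 and 32.2 CPM, edgeR adjusted p = 0.028). All 3 had both extract libraries above both controls. Coq7 missed the threshold when either extract replicate, 1 or 2, was left out (edgeR adjusted p = 0.134 and 0.308), while Aifm2 and Coq10b passed in 14 of 14 alternatives.

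Coq8a, an atypical kinase needed for ubiquinone synthesis, fell, with 678 and 494 CPM in the controls and 185 and 240.2 CPM after extract, a log2 fold change of -1.46 (edgeR adjusted p = 0.011). Etfdh, which passes electrons from fatty acid oxidation to ubiquinone, fell as well, with 257 and 304 CPM against 137 and 154 CPM, a log2 fold change of -0.95 (edgeR adjusted p = 0.0147). Both log2 fold changes were larger in size than that of Ndufb6. Etfdh also missed the threshold when either extract replicate, 1 or 2, was left out (edgeR adjusted p = 0.160 and 0.0768), and Coq8a missed it without extract replicate 1 (edgeR adjusted p = 0.0523).

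Sdhaf1, which helps insert the iron-sulfur clusters of Sdhb, was the 1 gene called among 10 assembly factors of complexes II and III, with 13.2 and 15.1 CPM against 25.0 and 24.8 CPM and a log2 fold change of 0.82 (edgeR adjusted p = 0.0233). It missed the threshold without either extract replicate. None passed among 10 complex I assembly factors outside the symbol rule, 23 of complex IV and 5 of ATP synthase, with medians of -0.01, 0.09 and -0.21. Coa6, a copper-binding complex IV factor, came nearest, at a log2 fold change of 0.54 (edgeR adjusted p = 0.105). Of 5 proteins of the complexes outside the rule none passed. Atpif1, the inhibitor of ATP hydrolysis by ATP synthase, measured 15.6 and 17.3 CPM against 25.3 and 24.9 CPM, a log2 fold change of 0.61 with an adjusted p of 0.0528 in edgeR's fit, and it passed in 7 of the 14 alternatives. Cyc1, the cytochrome c1 of complex III, had a log2 fold change of 0.07.

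Among 25 regulators of mitochondrial biogenesis, 2 rose and none fell, where 4.91% and 3.63% of all genes did. Esrra, a nuclear receptor that binds promoters of respiratory chain genes, measured 34.6 and 27.1 CPM in the controls and 72.8 and 59.1 CPM after extract, a log2 fold change of 1.10 (edgeR adjusted p = 0.0155). Myc, a transcription factor with many targets, measured 4.92 and 4.75 CPM against 9.90 and 14.5 CPM, a log2 fold change of 1.34 (edgeR adjusted p = 0.0238). Esrra missed the threshold without extract replicate 1 (edgeR adjusted p = 0.0918) and Myc without extract replicate 2 (edgeR adjusted p = 0.278). Gabpa, whose element was searched above, measured 57.6 and 52.5 CPM against 36.3 and 38.5 CPM, a log2 fold change of -0.56 that missed the threshold (edgeR adjusted p = 0.0527) and passed in 8 of the 14 alternatives. The coactivator Ppargc1a (11.4 and 5.35 against 8.95 and 7.05 CPM), Nrf1 (11.6 and 13.0 against 11.1 and 13.3 CPM) and the mitochondrial DNA factor Tfam (47.4 and 51.4 against 46.2 and 42.9 CPM) had log2 fold changes of -0.08, -0.005 and -0.15. Each of these 3 changed sign under at least 1 alternative.

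**Figure D5:**
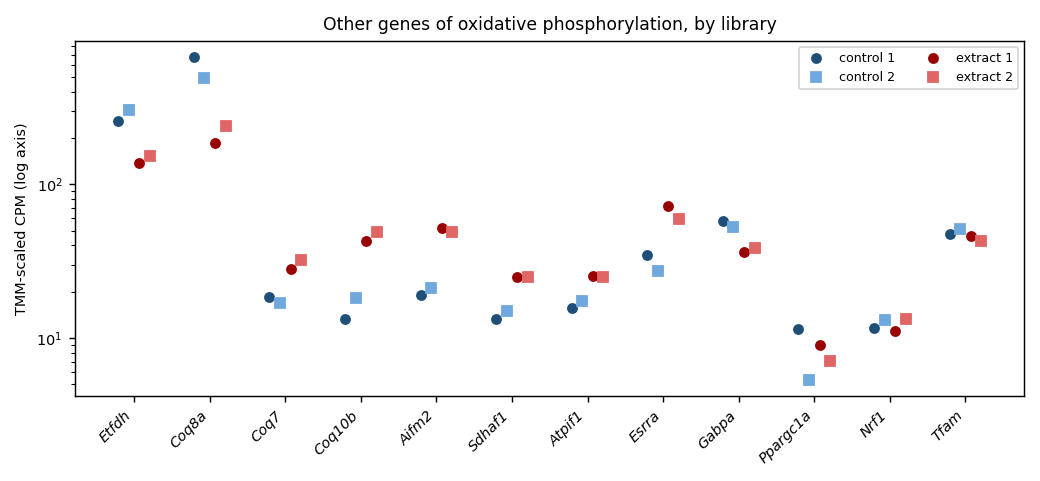
TMM-scaled CPM (y axis, log scale) in each library of 12 genes outside the member set, among them regulators of mitochondrial biogenesis. Circles mark replicate 1, squares replicate 2, blue control and red extract. Etfdh, Coq8a, Gabpa and Tfam lie lower in both extract libraries, Coq7, Coq10b, Aifm2, Sdhaf1, Atpif1 and Esrra lie higher, and Ppargc1a and Nrf1 overlap.

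Few genes passed in the neighbouring groups. The tricarboxylic acid cycle list of 19 enzymes included Pcx and the pyruvate dehydrogenase genes Pdha1, Pdhb, Dlat and Pdhx, which feed the cycle. None of these 19 (median 0.06), 9 membrane carriers (0.06) and 78 mitochondrial ribosomal proteins (-0.01) passed the threshold in edgeR's fit. Of 82 cytosolic ribosomal protein genes 2 did, both as higher (Rps19 and Rps27l). At an unadjusted p under 0.05 in edgeR's fit, which 23.5% of all genes tested reached, the 19 enzymes of the tricarboxylic acid cycle list held 4, 2 in each direction. The 9 carriers held 0 and the 78 mitochondrial ribosomal proteins 3.

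Cell type markers moved with the groups in these bulk libraries. Of 19 hepatocyte markers tested 4 fell, with a median log2 fold change of -0.52, and their sum went from 197922 and 210420 CPM in the controls to 133134 and 141103 CPM after extract, so that every library carried abundant hepatocyte RNA, as its tissue label says. Of 12 Kupffer cell markers 11 fell (sums 844 and 661 against 84.7 and 86.2 CPM). Of 12 sinusoidal endothelial markers 7 fell (459 and 475 against 296 and 283 CPM). Another 3 lay higher in both extract libraries, with none past the threshold as higher. Among 12 stellate cell markers 3 fell, with 7 log2 fold changes below 0 and 5 above. For comparison, 3.63% of all genes tested passed as lower. Fewer cells of a type and less RNA per cell cannot be told apart in such data. The part of these shifts in the members' values was not tested.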

How the data were processed

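Liver total RNA was taken up in Trizol and made into Illumina libraries, per the labels' protocols. CASAVA 1.8, HISAT2 2.1.0, HTSeq and the build mm10 are named per the submitters' processing notes, and neither an annotation, a read length nor a strand setting is stated there. The values deposited by the authors are raw counts, 1 for each gene symbol in each library, with no normalization. Each file also has 5 entries that name no gene, which were left out of all fits and totals: non-unique alignments took 5.18% to 9.03% of all records, those in no feature 8.40% to 10.2%, ambiguous ones 0.989% to 1.22%, low-quality ones 0.556% to 0.733% and unaligned ones 0.552% to 0.776%. One count is worth 0.0208 to 0.0337 CPM.

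Groups follow the sample titles. The test was that of edgeR 4.0.16, run in R 4.3.3 (filterByExpr, TMM scaling, robust glmQLFit, 2-sided quasi-likelihood F test), with p-values adjusted after Benjamini and Hochberg over 13963 genes and a threshold of 0.05. CPM are scaled by the TMM factors. The SE was derived from the F statistic and the fold change, and the biological coefficient of variation came to 22.3%. Libraries of a group differed by more than sampling noise, with a chi-square over its degrees of freedom of 123 for the controls and 30.2 for the extract pair. The members and all lists were chosen with earlier results of these data known. Named genes are members past the threshold, the 3 with the smallest p (mean of at least 1 CPM) and the most abundant of each complex, the tissue-restricted forms with their counterparts, up to 3 genes per pathway list, and 5 regulators; further members were named after their values were seen, among them those with separate groups, Ndufv1, Ndufs5, Ndufa1, Atp5k, Atp5g2 and Atp5g3, as were Cox6b2, Coq7 and Etfdh. One member chosen this way is counted but not reported here by itself. Simulated counts with known changes were also run through the fit, and the share recovered is not given here. Positions and promoters come from RefSeq on GRCm38.p6, where 25037 of 25239 symbols matched, and transcript lengths, shared stretches and overlaps from GENCODE vM21, where 24706 matched. The 14 alternatives were other scalings, DESeq2 1.42.0, limma-voom (limma 3.58.1), no robust step, other filters, a fit without the 20 most abundant genes, each library left out in turn, and a replicate block.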

Additional observations from a re-analysis of the deposited data

How the results depend on the processing

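With 2 libraries per group, the half-width of the 95% interval had a median of 0.37 on the log2 scale among members. Differences smaller than that were mostly not detectable. The interval is not adjusted for the number of genes tested, so larger differences could also miss the threshold. Ndufa8 at 0.69 and Ndufaf4 at 0.55 did. Of the members, 1 was called higher and 0 lower. DESeq2 called 2 higher, and leaving out 1 library gave 0 to 12 higher and 0 to 4 lower. Of the 208 pathway genes 6 were called higher and 2 lower; DESeq2 called 4 lower, and leaving out 1 library gave 3 to 28 higher and 0 to 12 lower. The members' median log2 fold change, -0.08, ran from -0.18 to 0.04 when 1 library was left out. The other scalings, limma-voom, the fit without the robust step, the filters and leaving out the 20 most abundant genes kept these counts within 1.5 times.

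The replicate numbers pair no samples that the labels tie together; deviations of same-numbered libraries correlated at 0.22 over all genes and 0.25 over members. With the replicate number as a block, 2 members (Ndufb6 and Ndufa8) and 10 pathway genes were called higher.

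Some named log2 fold changes, none of them past a threshold, changed sign. Not every gene named above was included in this check, and Atp5g2 and Atp5g3 are among those left out. Under total-count scaling the values were 0.041 for Sdhc, 0.083 for Ppargc1a, 0.16 for Nrf1 and 0.019 for Tfam, and under upper-quartile scaling -0.019 for Cox4i1. Leaving out 1 library at a time gave -0.12 to 0.32 for Uqcrq, -0.075 to 0.078 for Cox4i1, -0.59 to 0.20 for Ndufa4l2, -0.030 to 0.29 for Higd2a, -0.38 to 0.048 for Foxred1, -0.51 to 0.58 for Ppargc1a and -0.16 to 0.11 for Nrf1. Nrf1 was 0.0094 with limma-voom and 0.0019 without a filter, and Ppargc1a was 0.012 with the replicate block. The cause was not tested.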
